A study of Mus musculus with 16 samples.

Results

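The matrix metalloproteases (MMPs), the ADAMTS proteases, the ADAMTS-like proteins and the tissue inhibitors of metalloproteases (TIMPs) were followed through whole-liver messenger RNA of mice that lacked ARID1B, or both ARID1A and ARID1B, in hepatocytes. With earlier results of these data known, members were taken by gene name. They were every row of both deposited count tables named Mmp, Adamts, Adamtsl or Timp with a number. This gave 51 genes of 24421 rows: 23 MMP, 19 ADAMTS, 5 ADAMTS-like and 4 TIMP genes. All 51 matched GENCODE M21 by symbol. The DKO group (n = 4) was floxed at both genes (ARID1A f/f and ARID1B f/f) and Alb-Cre+, and its controls (n = 4) had the same floxed alleles and were Alb-Cre-. The BKO group (n = 4) was ARID1B f/f, Alb-Cre+, with ARID1B f/f, Alb-Cre- controls (n = 4). All groups thus carried floxed Arid1b and the sources used here give no ages. Alb-Cre is a recombinase transgene driven by albumin regulatory sequence and active in hepatocytes. Liver cells in which it was never active, in themselves or in the cells they came from, keep both genes. Their RNA is part of every library. Which cells besides hepatocytes it reached, such as bile duct epithelium, was not measured here. Libraries go by the code at the end of their titles, such as F1 for ARID1B-F1-KO.

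MMPs are secreted or membrane-bound zinc proteases that cleave collagens, elastin and other matrix proteins. ADAMTS proteases are secreted relatives that bind matrix through thrombospondin repeats and cut proteoglycans, procollagens or von Willebrand factor, and ADAMTS-like proteins keep the repeats but lack the catalytic domain. TIMPs bind the active site of these proteases and block it. In the liver, hepatic stellate cells, portal fibroblasts, macrophages and neutrophils are known sources of many of these proteins, and the balance of proteases and TIMPs is studied as a determinant of scar build-up and removal.

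Libraries of the DKO experiment held 8699417 to 11031443 counts and those of the BKO experiment 21151726 to 40551934. Levels are CPM, counts scaled to library size after TMM normalization, and a gene was called when its edgeR quasi-likelihood test gave a Benjamini-Hochberg adjusted p under 0.05 over all genes tested. The labels give each library a code without saying what it stands for, or whether F5 and F5-2 share an animal, so p-values measure the spread between these libraries. Among the targeted genes, Arid1b was lower in DKO livers (60.0 ± 13.7 against 89.3 ± 9.17 CPM, log2 ratio -0.57, SE 0.16, adjusted p = 0.0167 by edgeR) and in BKO livers (44.3 ± 3.98 against 84.8 ± 2.01 CPM, log2 ratio -0.94, SE 0.09, adjusted p = 0.00154 by edgeR). Arid1a did not pass in DKO livers (108 ± 6.08 against 124 ± 10.2 CPM, edgeR adjusted p = 0.149). A count over a whole gene also reads the exons left after Cre and the cells without Cre. The hepatocyte marker Alb was high in every group, at 53336 ± 11946 against 100122 ± 7780.2 CPM in the DKO experiment.

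In DKO livers 22 of the 51 genes were higher than in their controls and 1 was lower. Over all 12848 genes tested in this comparison, 19.2% were called higher (2467) and 16.6% lower (2137), and with total-count scaling 3266 and 1269 genes. Among the called genes, the largest ratios were those of the collagenase gene Mmp13, the macrophage elastase gene Mmp12 and the inhibitor gene Timp1, which were close to 0 in the controls. Per kilobase of exon, the most abundant of those that rose were Adamts1, Timp2, Timp3, Adamtsl2 and Adamts2. By family, 6 MMP, 10 ADAMTS, 3 ADAMTS-like and 3 TIMP genes were higher, and the lower gene was the membrane-type protease gene Mmp15. Of the 51 genes, 31 passed the filter on low counts and 20 did not. Adamts4, Adamtsl3, Mmp12, Mmp13, Mmp28 and Timp1 passed only through DKO libraries, with 0 control libraries at the filter's level, so these 6 had to differ once tested. Adamts12, Mmp23 and Mmp27 had 4 DKO libraries but only 1 control library at that level, and Adamts15 had 4 and 2. Their tests thus also leaned on high DKO libraries, and a higher call was favoured in advance. The median log2 ratio of DKO to control over the 31 was 1.68 against 0.02 over all genes tested, given as a description because of these limits. The 8 tested genes that were not called are Adamts3, Adamts7, Adamts13, Adamtsl4, Adamtsl5, Mmp14, Mmp17 and Mmp19. These are bulk samples, in which more cells of a type and more RNA per cell cannot be told apart.

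**Figure D1:**
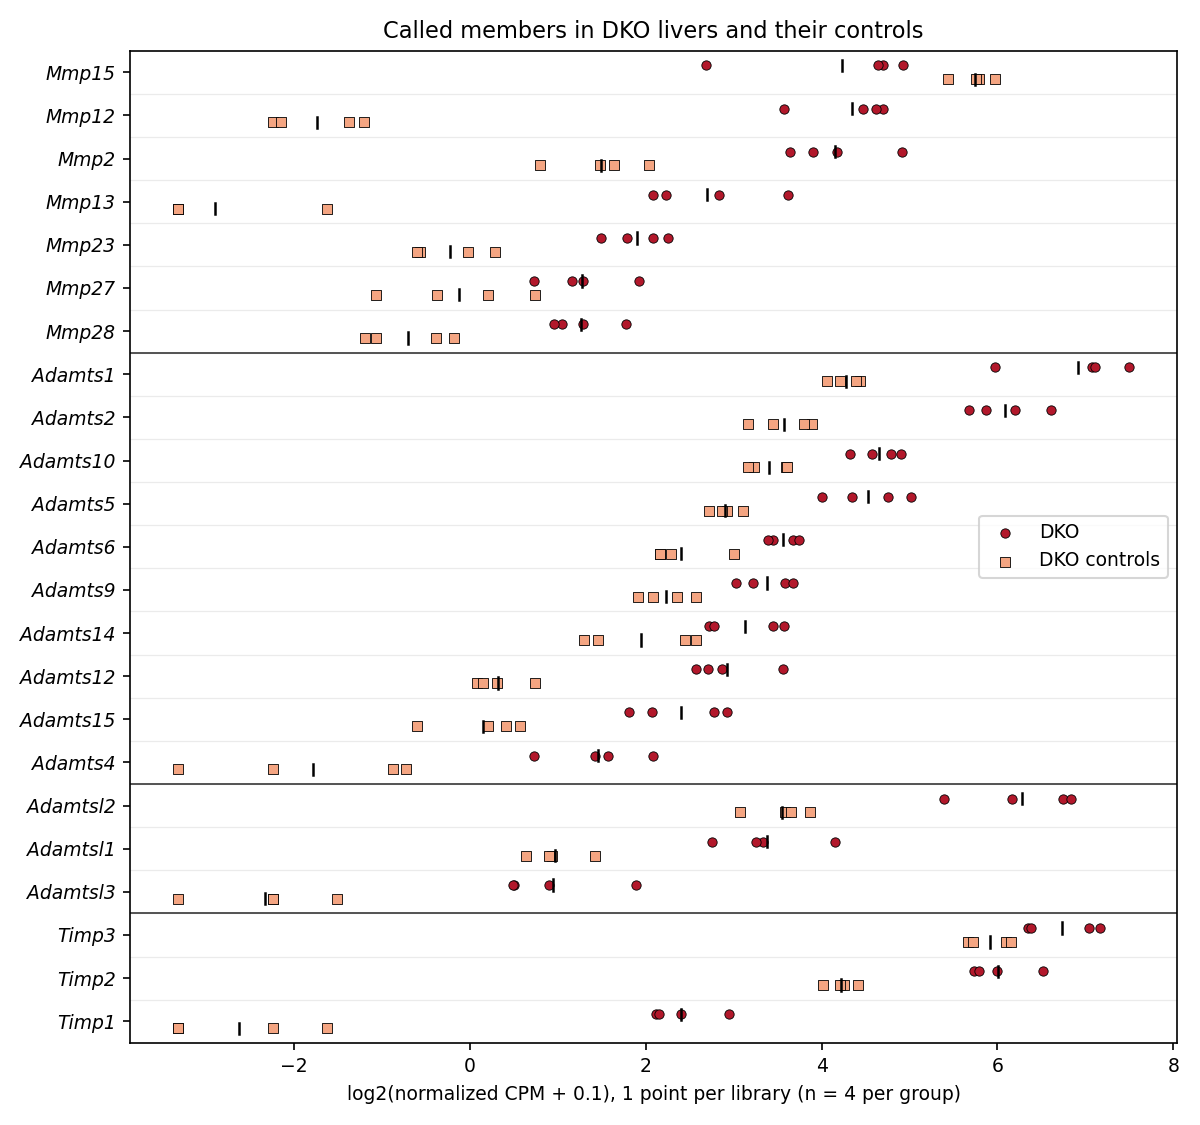
Levels of the 23 called members in the DKO experiment, as log2 of normalized CPM plus 0.1 on the x axis, with 1 circle per DKO library and 1 square per control library (n = 4 per group) and a bar at each group's mean of these log values. Horizontal lines part the MMP, ADAMTS, ADAMTS-like and TIMP genes; 22 genes lie to the right in DKO livers and Mmp15 to the left, and the groups of Mmp27 overlap.

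In the sentences that follow, DKO values stand in the order DKO-7068, DKO-7070, DKO-7112, DKO-7137 and control values in the order WT-7067, WT-7069, WT-7114, WT-7139, each as normalized CPM. Means are given ± SD over n = 4 libraries per group.

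Mmp13, the main interstitial collagenase of rodents, stood at 4.60, 7.02, 4.12 and 12.2 CPM against 0.224, 0, 0 and 0 CPM. All 4 DKO libraries were above all controls, 3 of which had no count (6.99 ± 3.71 against 0.0560 ± 0.112 CPM, log2 ratio 6.68, SE 0.73, adjusted p = 0.000103 by edgeR). The control level rested on 2 counts, both in WT-7067, and the ratio of the summed normalized counts was 125 (95% exact binomial interval 34.2 to 1034, counting error only). Without WT-7067 no control count was left and the fitted log2 fold change, which then depends on the prior count, was 9.11. Mmp12, the elastase of macrophages, was at 25.9, 24.6, 11.8 and 22.1 CPM against 0.336, 0.286, 0.112 and 0.126 CPM. The lowest DKO library, DKO-7112, was far above the highest control (21.1 ± 6.37 against 0.215 ± 0.113 CPM, 98.0-fold higher, log2 ratio 6.50, SE 0.39, adjusted p = 3.14e-06 by edgeR). The gelatinase gene Mmp2, a product of stellate cells and fibroblasts, was at 17.99, 30.0, 12.4 and 14.8 CPM against 3.02, 4.01, 2.69 and 1.64 CPM. Its groups did not overlap either, with DKO-7070 highest (18.8 ± 7.84 against 2.84 ± 0.977 CPM, 6.62-fold higher, log2 ratio 2.71, SE 0.33, adjusted p = 0.000234 by edgeR).

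Beside Mmp12, 8 of 10 tested markers of recruited macrophages were higher and 0 lower, and their summed level was 205 to 384 CPM in DKO livers against 69.9 to 135 CPM. Among them Cx3cr1 stood at 18.6 ± 3.37 against 0.695 ± 0.433 CPM and Trem2 at 5.90 ± 2.08 against 0.215 ± 0.159 CPM. Of 8 Kupffer cell markers, which mark the resident macrophages, 2 were higher, 1 was lower and the summed levels overlapped (469.7 to 558 against 449 to 689 CPM). Beside Mmp2, 5 of 7 tested markers of myofibroblasts and portal fibroblasts were higher and 0 lower, with sums of 65.1 to 83.6 against 24.3 to 28.4 CPM. Of 10 stellate cell markers 3 were higher and 4 lower, with overlapping sums of 314 to 526 and 398 to 489.6 CPM. Hepatocyte markers were lower, 5 of 7 by test, with sums of 69434 to 101082 against 128648 to 152556 CPM. Of 4 tested markers of bile duct epithelium 2 were higher and 0 lower, with sums of 51.5 to 73.9 against 16.5 to 37.3 CPM. Over all genes tested, 19.2% were called higher and 16.6% lower. Cx3cr1 and Trem2, with control means under the filter's level of 1.04 CPM, were tested because their DKO libraries were high. Such genes had to differ once tested, and how many of these markers they make up was not worked out. The part of any of these cell types in the protease levels was not tested.

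Mmp13 and Mmp12 lie side by side at one end of a cluster of 10 MMP genes on chromosome 9 of GRCm38, from 7272514 to 7699585, a span of 427.1 kb in GENCODE M21. In chromosome order these are Mmp13, Mmp12, Mmp1b, Mmp3, Mmp1a, Mmp10, Mmp8, Mmp27, Mmp20 and Mmp7. MMP promoters of this cluster are known for AP-1 elements near the start site, so the letters TGANTCA, the same on both strands, were searched in the RefSeq promoter table (GRCm38.p6, 250 bases before to 50 after each start). Of 32851 promoters in the table, 7.8% held a match. Of the 51 members, 36 genes with 39 promoters were in the table, and 8 genes held a match. All 8 belong to the cluster: Mmp1a, Mmp1b, Mmp3, Mmp7, Mmp10, Mmp12, Mmp13 and Mmp20, while the windows of Mmp8 and Mmp27 held none. The 150 bases before the start are shown for the pair that rose in DKO livers and for the stromelysin genes Mmp3 and Mmp10, which share the match and stayed near 0, with the matched letters in capitals, 5′ to 3′. The 4 stretches hold 0 bases of an annotated GENCODE exon. Mmp12 has 2 RefSeq starts. The one nearest the GENCODE gene start (7344381) has no match in the bases before it, and the one shown lies further inside the annotated gene.
Mmp13 (chr9:7272364-7272513, plus strand): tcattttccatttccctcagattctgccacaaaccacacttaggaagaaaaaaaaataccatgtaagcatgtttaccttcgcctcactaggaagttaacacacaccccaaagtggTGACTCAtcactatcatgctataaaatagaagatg
Mmp12 (chr9:7347224-7347373, plus strand): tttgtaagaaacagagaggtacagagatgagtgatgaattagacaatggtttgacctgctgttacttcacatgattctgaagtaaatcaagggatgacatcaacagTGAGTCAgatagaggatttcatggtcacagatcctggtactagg
Mmp3 (chr9:7445672-7445821, plus strand): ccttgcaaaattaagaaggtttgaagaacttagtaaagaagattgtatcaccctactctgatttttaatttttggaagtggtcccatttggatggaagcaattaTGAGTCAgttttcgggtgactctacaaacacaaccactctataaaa
Mmp10 (chr9:7502192-7502341, plus strand): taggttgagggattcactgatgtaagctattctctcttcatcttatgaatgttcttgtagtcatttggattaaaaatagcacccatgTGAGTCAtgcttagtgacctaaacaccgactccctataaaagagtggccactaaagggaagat
The first matched base lay 35 bases before the start in Mmp13, 44 in Mmp12, 46 in Mmp3 and 63 in Mmp10. Of the 8 genes with a match, Mmp12 and Mmp13 were higher in DKO livers and the other 6 did not reach the count filter. Letters of the TATA box, TEAD, PEA3, NF-kB and E-box motifs were searched too. The TATA box letters TATAAA matched in 12 of the 36 genes, against 13.6% of promoters. These include all 8 genes with the AP-1 match, and Mmp8. The others matched in 2 (TEAD, 14.7% of promoters), 15 (PEA3, 35.4%), 1 (NF-kB, 5.8%) and 26 genes (E-box, 72.3%). A match of letters is a description of the window and shows no binding.

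**Figure D2:**
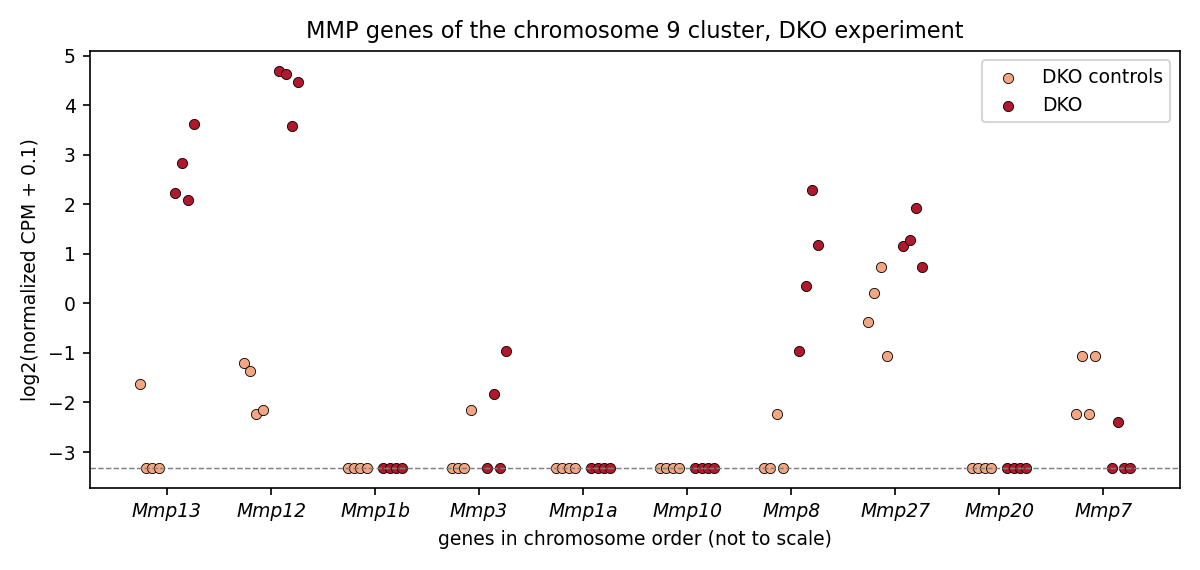
The 10 genes of the chromosome 9 cluster in chromosome order on the x axis (not to scale), with log2 of normalized CPM plus 0.1 in each of the 4 DKO and 4 control libraries on the y axis; the dashed line marks 0 CPM. Mmp13 and Mmp12 are separated between the groups, Mmp8 is above 0 in all 4 DKO libraries and 1 control, and Mmp1b, Mmp1a, Mmp10 and Mmp20 have no count in any of the 8 libraries.

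Elsewhere in the cluster, Mmp27 was at 2.14, 2.34, 3.69 and 1.55 CPM against 0.672, 1.05, 1.57 and 0.379 CPM. Its groups overlapped, since WT-7114 was level with the lowest DKO library (2.43 ± 0.904 against 0.918 ± 0.515 CPM, 2.65-fold higher, log2 ratio 1.37, SE 0.42, adjusted p = 0.0280 by edgeR). The call ended without any 1 of DKO-7068, DKO-7070, DKO-7112, WT-7067, WT-7069 or WT-7139, at adjusted p from 0.0507 to 0.0765. Mmp3 had 6 counts over the DKO group against 1, and the matrilysin gene Mmp7 1 against 9. Mmp1a, Mmp1b, Mmp10 and Mmp20 had 0 counts in both groups, which allows up to 3 counts over a group of 4 libraries, for counting error only.

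Mmp8, Mmp9 and Mmp25, which neutrophils are known to store, did not reach the count filter in the DKO experiment. The neutrophil collagenase gene Mmp8 had 83 counts over the DKO libraries and 1 over the controls, at 0.411, 1.17, 4.78 and 2.18 CPM against 0, 0, 0.112 and 0 CPM. Every DKO library was above every control, DKO-7112 highest, and the ratio of summed normalized counts was 71.4 (95% exact binomial interval 12.5 to 2852, counting error only). With no filter on low counts Mmp8 was called higher (edgeR adjusted p = 0.00170). Mmp25, a membrane-type protease of leukocytes, had 35 counts against 0, at 0.328, 1.35, 0.760 and 0.933 CPM in the DKO libraries, and was at least 10.2-fold higher against a floor of 3 counts over the control group. Without the filter its edgeR adjusted p was 0.00239. The gelatinase gene Mmp9 had 77 counts against 29, at 0.493, 0.630, 5.32 and 1.55 CPM against 0.672, 0.859, 1.23 and 0.379 CPM, and its groups overlapped with DKO-7112 alone far above the rest. Summed over 10 neutrophil markers, the same libraries stood at 13.3, 24.02, 66.1 and 18.7 CPM against 3.81, 6.68, 3.81 and 3.28 CPM, again with DKO-7112 highest. Of these markers 3 passed the filter and all 3 were higher (S100a9 22.3-fold, S100a8 15.1-fold, Csf3r 3.39-fold), beside 19.2% of all genes. Which of the 3 passed only through DKO libraries was not worked out. Elane had no count in any of the 8 libraries and Ltf none in the controls. The part of neutrophils in the 3 MMP levels was not tested.

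**Figure D3:**
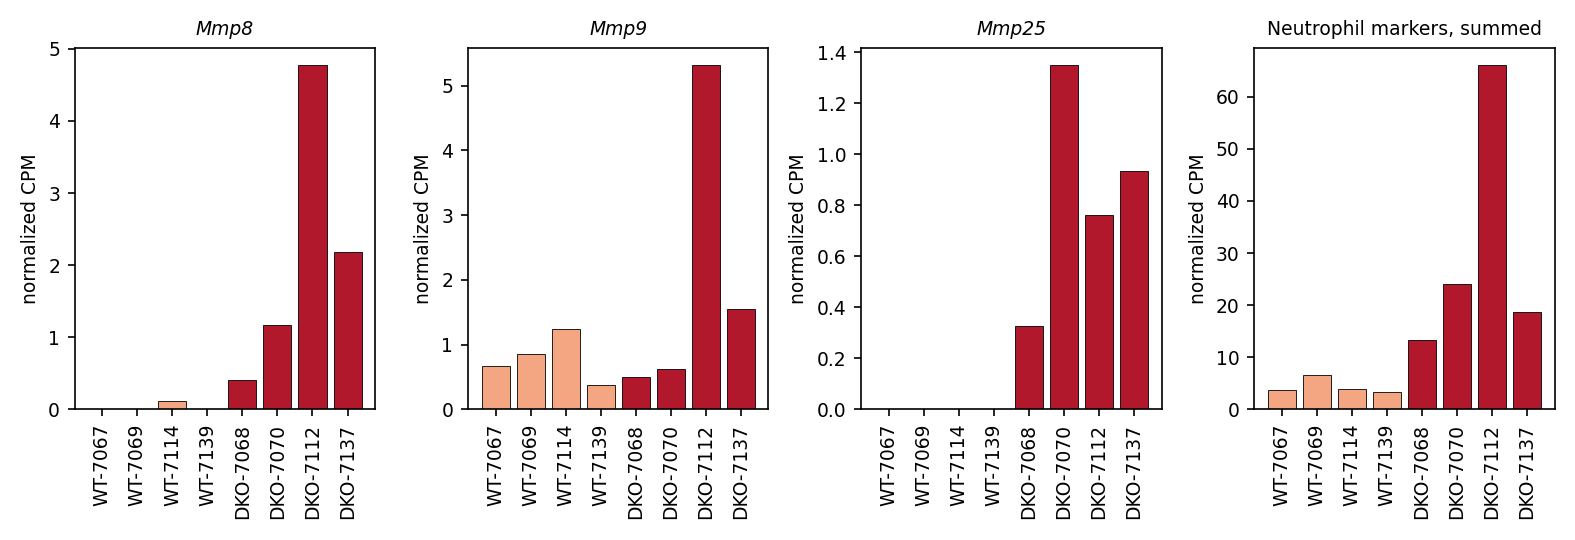
Normalized CPM (y axes from 0, on different scales) of Mmp8, Mmp9, Mmp25 and the sum of 10 neutrophil markers in each library of the DKO experiment, controls first. DKO-7112 has the tallest bar for Mmp8 (4.78), Mmp9 (5.32) and the marker sum (66.1), and DKO-7070 for Mmp25 (1.35).

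Among the remaining MMP genes, Mmp23, which encodes a short protease anchored by its N-terminal end, was at 2.71, 4.68, 3.36 and 4.14 CPM against 1.12, 0.573, 0.561 and 0.883 CPM. Its groups did not overlap (3.72 ± 0.865 against 0.784 ± 0.269 CPM, 4.75-fold higher, log2 ratio 2.24, SE 0.32, adjusted p = 0.000481 by edgeR). Mmp28, which encodes epilysin, was at 1.97, 2.34, 1.85 and 3.32 CPM against 0.784, 0.668, 0.337 and 0.379 CPM, also without overlap (2.37 ± 0.666 against 0.542 ± 0.219 CPM, 4.37-fold higher, log2 ratio 2.08, SE 0.37, adjusted p = 0.00158 by edgeR). Mmp28 shares 466 exon bases with the opposite-strand gene 1700020L24Rik, which had 16 counts over the 8 libraries. Mmp15, which encodes a membrane-type protease, was the member that fell, at 25.8, 30.3, 24.9 and 6.32 CPM against 55.4, 43.3, 62.6 and 53.9 CPM. Every DKO library was below every control and DKO-7137 was lowest (21.8 ± 10.6 against 53.8 ± 7.95 CPM, 2.47-fold lower, log2 ratio -1.30, SE 0.40, adjusted p = 0.0336 by edgeR). This call ended with total-count scaling (adjusted p = 0.0930), with no filter (adjusted p = 0.0684) and without DKO-7112, WT-7114 or WT-7139 (edgeR adjusted p = 0.0667, 0.0745 and 0.0591). Beside it, the hepatocyte marker sum was lower in every DKO library than in every control, and its part was not tested.

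Mmp14, the membrane-type protease that activates the Mmp2 product, did not pass (48.4 ± 17.3 against 40.7 ± 5.56 CPM, log2 ratio 0.25, SE 0.22, adjusted p = 0.411 by edgeR), and its groups overlapped from 34.7 to 73.6 CPM in DKO livers and 36.8 to 48.7 CPM in the controls. Mmp19, per kilobase the most abundant member of both control groups, was at 64.0 ± 14.2 against 74.5 ± 28.3 CPM and did not pass (log2 ratio -0.22, SE 0.26, adjusted p = 0.548 by edgeR). It shares 789 exon bases with Tmem198b on the opposite strand, which had 263 counts. Mmp17 was also not called (log2 fold change 0.68). The counts of the other untested MMP genes, summed over each group, were 39 against 19 for the stromelysin relative Mmp11, 30 against 4 for Mmp16, 19 against 30 for Mmp21 and 39 against 24 for Mmp24. Of these, Mmp16, a membrane-type protease gene, passed with no filter (edgeR adjusted p = 0.0415) although its groups overlapped.

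All 5 tested proteoglycanase genes of the ADAMTS family rose in DKO livers, beside 19.2% of all genes. Adamts4 passed the filter only through DKO libraries, and Adamts15 had only 2 control libraries at the filter's level. The products of these 5 genes cut versican, aggrecan and related proteoglycans. Adamts1 was at 134, 138, 62.7 and 181 CPM against 16.6, 21.5, 18.4 and 20.9 CPM. DKO-7112 was the lowest DKO library and still above every control (129 ± 49.0 against 19.3 ± 2.29 CPM, 6.67-fold higher, log2 ratio 2.74, SE 0.29, adjusted p = 0.000153 by edgeR). Adamts5, its neighbour on chromosome 16, was at 26.9, 32.3, 16.0 and 20.2 CPM against 7.501, 8.50, 6.51 and 7.19 CPM, and its groups did not overlap (23.8 ± 7.21 against 7.42 ± 0.827 CPM, 3.21-fold higher, log2 ratio 1.68, SE 0.22, adjusted p = 0.000250 by edgeR). Adamts4 was at 1.56, 2.88, 4.12 and 2.59 CPM against 0.448, 0, 0.112 and 0.505 CPM, with the lowest DKO library above all controls (2.79 ± 1.06 against 0.266 ± 0.248 CPM, 10.48-fold higher, log2 ratio 3.39, SE 0.60, adjusted p = 0.00162 by edgeR). Adamts9 was at 11.9, 12.7, 9.23 and 8.08 CPM against 5.04, 5.82, 4.15 and 3.66 CPM, again without overlap (10.48 ± 2.18 against 4.67 ± 0.959 CPM, 2.24-fold higher, log2 ratio 1.16, SE 0.21, adjusted p = 0.00181 by edgeR). Adamts15 was at 4.11, 6.75, 7.49 and 3.42 CPM against 0.560, 1.05, 1.23 and 1.39 CPM, and every DKO library exceeded every control (5.44 ± 1.98 against 1.06 ± 0.360 CPM, 5.14-fold higher, log2 ratio 2.35, SE 0.36, adjusted p = 0.000668 by edgeR). Adamts8 had 27 counts against 19 and was not tested, and Adamts20 had no count. The substrate gene versican (Vcan) was 14.6-fold higher (8.87 ± 4.01 against 0.608 ± 0.258 CPM, log2 ratio 3.84, SE 0.41, adjusted p = 8.16e-05 by edgeR), while the aggrecan gene Acan had no count in any of the 8 libraries. The control mean of Vcan lay under the filter's level of 1.04 CPM. Vcan was thus tested through its DKO libraries and had to differ once tested.

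The procollagen N-propeptidases Adamts2, Adamts3 and Adamts14 trim the N-terminal propeptides of fibrillar procollagens before fibrils form. Adamts2 was at 73.3, 97.3, 51.1 and 58.4 CPM against 14.8, 13.8, 8.86 and 10.9 CPM. Its groups were far apart, with DKO-7070 highest (70.04 ± 20.4 against 12.1 ± 2.72 CPM, 5.80-fold higher, log2 ratio 2.53, SE 0.23, adjusted p = 4.98e-05 by edgeR). Adamts14 was at 6.49, 6.75, 11.8 and 10.8 CPM against 5.37, 5.82, 2.36 and 2.65 CPM. The lowest DKO library was just above the highest control (8.96 ± 2.74 against 4.05 ± 1.80 CPM, 2.21-fold higher, log2 ratio 1.12, SE 0.33, adjusted p = 0.0227 by edgeR), and the call ended without any 1 of DKO-7112, DKO-7137, WT-7114 or WT-7139, at edgeR adjusted p from 0.0556 to 0.0589. Between libraries whose numbers begin with 70 its ratio was 1.18-fold, and between those that begin with 71 it was 4.52-fold, 2 libraries a group in each. Adamts3 did not pass (2.07 ± 0.980 against 1.37 ± 0.571 CPM, log2 ratio 0.60, SE 0.42, adjusted p = 0.301 by edgeR). Among the procollagen genes these enzymes act on, Col1a1 was 19.8-fold higher (559 ± 109 against 28.2 ± 13.1 CPM), Col1a2 8.97-fold and Col3a1 9.30-fold. Bmp1, which encodes the C-propeptidase of the same procollagens, was 1.97-fold lower (107 ± 24.5 against 211 ± 34.8 CPM, log2 ratio -0.98, SE 0.17, adjusted p = 0.00166 by edgeR), and Pcolce, which encodes its enhancer, 2.53-fold higher (log2 ratio 1.34, SE 0.20, adjusted p = 0.000568 by edgeR).

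Of the other ADAMTS genes, Adamts12, whose product cuts cartilage oligomeric matrix protein, was at 5.83, 7.20, 11.7 and 6.42 CPM against 1.57, 0.955, 1.01 and 1.14 CPM, without overlap (7.79 ± 2.68 against 1.17 ± 0.278 CPM, 6.68-fold higher, log2 ratio 2.73, SE 0.30, adjusted p = 9.86e-05 by edgeR). Adamts6 and Adamts10 encode a pair of related proteins known for their link to fibrillin microfibrils. Adamts10 was at 19.9, 27.6, 23.8 and 29.7 CPM against 12.0, 9.26, 8.86 and 12.1 CPM, and the groups were apart (25.3 ± 4.35 against 10.6 ± 1.73 CPM, 2.39-fold higher, log2 ratio 1.26, SE 0.17, adjusted p = 0.000290 by edgeR). Adamts6 was at 12.6, 10.8, 10.4 and 13.3 CPM against 4.37, 4.77, 4.37 and 7.95 CPM, with WT-7139 well above the other controls and below every DKO library (11.8 ± 1.39 against 5.37 ± 1.73 CPM, 2.20-fold higher, log2 ratio 1.14, SE 0.21, adjusted p = 0.00217 by edgeR). Adamts7, the closest relative of Adamts12, did not pass (10.51 ± 4.03 against 12.5 ± 3.36 CPM, log2 ratio -0.26, SE 0.30, adjusted p = 0.548 by edgeR). Adamts13, which encodes the protease of von Willebrand factor and is known as a stellate cell product, stood at 5.83, 6.12, 15.1 and 4.97 CPM against 11.6, 18.04, 9.54 and 13.8 CPM. All DKO libraries but DKO-7112 lay below every control, and the gene did not pass (8.002 ± 4.75 against 13.2 ± 3.63 CPM, log2 ratio -0.74, SE 0.36, adjusted p = 0.142 by edgeR). Without DKO-7112 it was lower (log2 fold change -1.25, edgeR adjusted p = 0.00232). Its substrate gene Vwf was 1.80-fold higher (log2 ratio 0.85, SE 0.21, adjusted p = 0.01000 by edgeR). Untested were Adamts16 with 37 counts against 5, Adamts17 with 10 against 8, and Adamts18 and Adamts19 with none in the 8 libraries.

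Of the ADAMTS-like genes, whose products have no protease domain, 3 of 5 rose, beside 19.2% of all genes. Adamtsl3 passed the filter only through DKO libraries. Adamtsl2, whose product binds fibrillin and the latent TGF-beta binding protein, was at 107, 115, 41.9 and 71.5 CPM against 14.6, 11.9, 8.30 and 12.5 CPM. The DKO libraries were all above the controls and spread widely, DKO-7112 lowest (83.7 ± 33.6 against 11.8 ± 2.60 CPM, 7.08-fold higher, log2 ratio 2.82, SE 0.33, adjusted p = 0.000283 by edgeR). Adamtsl1 was at 10.02, 17.7, 9.44 and 6.63 CPM against 2.58, 1.81, 1.46 and 1.77 CPM, without overlap (11.0 ± 4.75 against 1.90 ± 0.475 CPM, 5.76-fold higher, log2 ratio 2.52, SE 0.33, adjusted p = 0.000257 by edgeR). Adamtsl3 was at 1.31, 3.599, 1.30 and 1.76 CPM against 0.112, 0, 0.112 and 0.252 CPM, where the controls rested on 4 counts and DKO-7070 was highest (1.99 ± 1.09 against 0.119 ± 0.103 CPM, 16.7-fold higher, log2 ratio 4.02, SE 0.66, adjusted p = 0.00103 by edgeR). Adamtsl4 and Adamtsl5 did not pass, with log2 fold changes of 0.08 (SE 0.23) and 0.23 (SE 0.37).

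All 3 tested inhibitor genes rose in DKO livers, beside 19.2% of all genes, and Timp1 passed the filter only through DKO libraries. Timp1, an inducible inhibitor of most MMPs, stood at 5.17, 4.23, 7.60 and 4.35 CPM against 0.224, 0, 0.112 and 0 CPM. The controls held 3 counts in all, 2 of them in WT-7067, against 222 in DKO livers (5.34 ± 1.56 against 0.0840 ± 0.107 CPM, log2 ratio 5.80, SE 0.55, adjusted p = 4.09e-05 by edgeR), and the ratio of summed normalized counts was 63.6 (95% exact binomial interval 21.5 to 311, counting error only). Without WT-7067 the log2 fold change was 6.75. Timp2, which also takes part in the activation of the Mmp2 product by Mmp14, was at 63.7, 91.9, 53.1 and 55.0 CPM against 18.9, 21.3, 16.0 and 18.4 CPM, with DKO-7070 highest and no overlap (65.9 ± 17.9 against 18.7 ± 2.15 CPM, 3.53-fold higher, log2 ratio 1.82, SE 0.18, adjusted p = 5.83e-05 by edgeR). Timp3, which stays bound to matrix and also blocks ADAM and ADAMTS proteases, was at 132, 143, 81.1 and 83.5 CPM against 68.4, 71.3, 50.8 and 52.5 CPM. Its groups were separated, DKO-7112 and DKO-7137 lying closest to the controls (109.9 ± 32.3 against 60.8 ± 10.6 CPM, 1.81-fold higher, log2 ratio 0.86, SE 0.21, adjusted p = 0.0101 by edgeR). Timp4 had 4 counts in DKO livers, at 0, 0, 0.326 and 0.104 CPM, and 0 in the controls, and was not tested. Genes of the synapsin family run across the TIMP genes: Timp1 within Syn1, Timp3 within Syn3 with 1733 shared exon bases, and Timp4 within Syn2 with 90, all on the opposite strand. Syn3 had 566 counts over the 8 libraries and, at 5.35 ± 2.14 against 9.40 ± 1.92 CPM, was not called (edgeR adjusted p = 0.0597). Syn1 and Syn2 had 144 and 11 counts.

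Summed over the 42 MMP and ADAMTS genes, protease RNA stood at 495, 575, 456 and 543 CPM in the DKO libraries against 268, 249, 257 and 316 CPM in the controls. The 4 TIMP genes together stood at 201, 239, 142 and 143 CPM against 87.6, 92.6, 67.0 and 70.9 CPM. Both sums were higher in every DKO library than in every control. The protease sum divided by the TIMP sum was 2.46, 2.40, 3.21 and 3.801 in DKO livers and 3.06, 2.69, 3.84 and 4.46 in the controls, and these ranges overlapped. Within the libraries numbered 70 and within those numbered 71, 2 a group in each, both DKO ratios lay below both control ratios, which was not tested. The parts of the protease sum differed. The 23 MMP genes summed to 176 to 214 against 144 to 224 CPM, which overlap, while the 19 ADAMTS genes summed to 241 to 365 against 81.0 to 105 CPM. The 5 ADAMTS-like genes, which are not in the protease sum, came to 64.6 to 147 against 19.1 to 25.1 CPM. Mmp19, Mmp14 and Mmp15, of which none was called higher, held most of the MMP sum in the controls. Sums of CPM weigh long transcripts more, and RNA sums do not give protease activity.

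**Figure D4:**
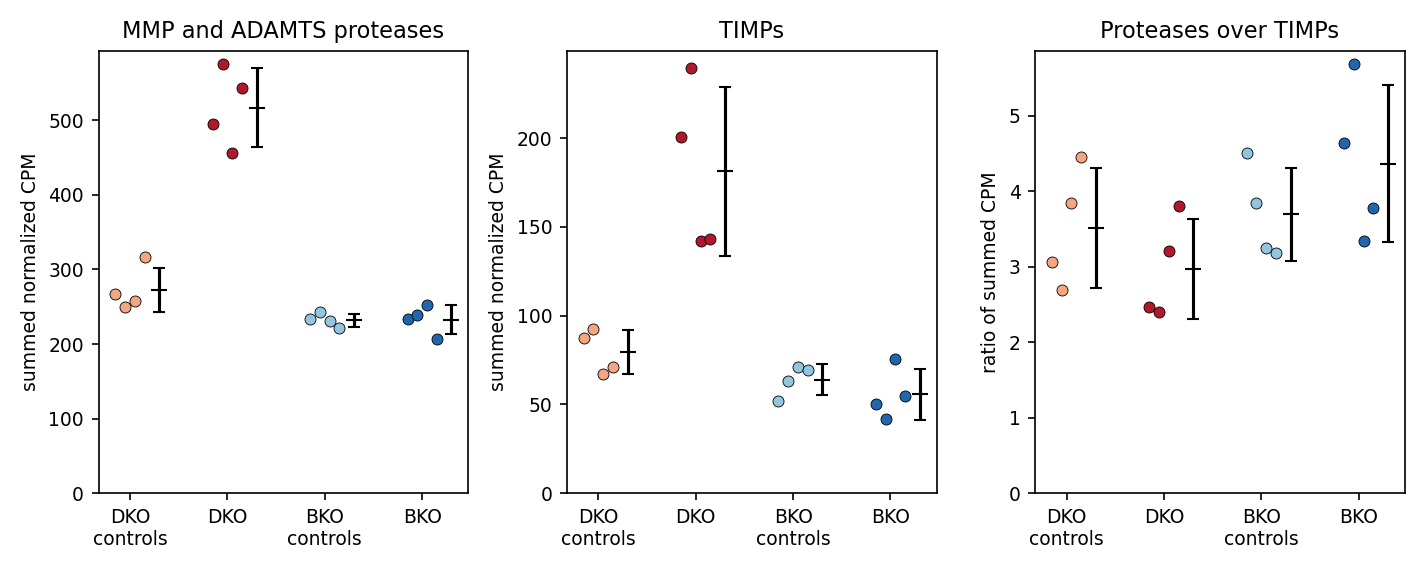
Summed normalized CPM of the 42 MMP and ADAMTS genes (left), of the 4 TIMP genes (middle) and their ratio (right), with axes from 0, 1 point per library in the 4 groups (n = 4 each) and bars for the mean ± SD. Protease sums of 456 to 575 in DKO livers lie above the 249 to 316 of their controls and TIMP sums of 142 to 239 above 67.0 to 92.6, the ratio overlaps, and the BKO groups overlap in all 3 panels.

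Per kilobase of exon, the order of the members changed between the groups. In the DKO controls Mmp19 led at 21.1 ± 8.02 CPM per kb, followed by Mmp15 (9.97 ± 1.47), Timp3 (7.46 ± 1.30), Mmp14 (6.83 ± 0.933) and Timp2 (4.79 ± 0.552). The SDs of Mmp19 and Mmp15, and those of Mmp14 and Timp2, did not overlap there, while those of neighbours among the middle 3 did. In DKO livers Adamts1 led at 24.3 ± 9.24 CPM per kb, followed by Mmp19 (18.1 ± 4.01), Timp2 (16.9 ± 4.59), Timp3 (13.5 ± 3.96) and Adamtsl2 (10.47 ± 4.20), neighbours in an order whose SDs overlap. Timp1, at 6.01 ± 1.76 CPM per kb, came after these. In the BKO controls and in BKO livers Mmp19 and Mmp15 led, at 17.1 ± 2.19 and 10.1 ± 1.70 CPM per kb in the controls and 21.4 ± 3.43 and 8.42 ± 1.10 in BKO livers.

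The genes around these proteases were counted in 4 further lists. Of 18 tested genes that activate or hold back matrix proteases, 8 were higher and 4 lower, with a median log2 ratio of 0.22. The serpin gene Serpine2 was 8.74-fold higher and the collagen propeptidase enhancer gene Pcolce 2.53-fold, while Reck, which encodes a membrane-anchored MMP inhibitor, was 2.59-fold lower (4.63 ± 0.965 against 12.0 ± 3.12 CPM, log2 ratio -1.36, SE 0.24, adjusted p = 0.00140 by edgeR). Of 19 tested matrix substrate genes 18 were higher and 0 lower (median 1.98), with the smallest p in Col4a1 (5.10-fold), Col5a1 (3.68-fold), Col4a2 (4.33-fold) and Col5a2 (6.20-fold). Of 8 ADAM sheddase genes 6 were higher and 1 lower (median 1.51), among them Adam8 7.85-fold and Adam15 3.10-fold higher. Of 11 other matrix-degrading enzyme genes 7 were higher and 2 lower (median 1.44), with the cathepsin genes Ctsl 3.75-fold and Ctss 2.71-fold higher and the hyaluronidase gene Hyal1 2.12-fold lower. Over all genes tested the median was 0.02, with 19.2% called higher and 16.6% lower. Genes that passed the filter only through DKO libraries were not set apart in these 4 lists, and Vcan is one.

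The DKO libraries carry numbers that begin with 70 or with 71, as do their controls, and with this as a covariate 22 members were again called higher and 1 lower, all 23 shared with the fit without it. With 2 libraries a group in each series, ratios of DKO to control means in the 70 and 71 series were 7.17 and 6.19 for Adamts1, 5.96 and 5.56 for Adamts2, 6.83 and 6.28 for Mmp2, 8.36 and 5.45 for Adamtsl2, 3.87 and 3.14 for Timp2 and 1.97 and 1.59 for Timp3. They were less alike for Mmp15 (0.568 and 0.268), Mmp28 (2.97 and 7.22) and Adamts12 (5.17 and 8.46). With DKO-7068 and DKO-7070 summed into 1 library, 21 members were higher and Mmp27 was lost.

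In BKO livers 0 of the 51 genes were called higher and 0 lower. Over all 14061 genes tested there, 0.185% were called higher and 0.398% lower, so few members would be called at that rate. The filter passed 32 members, none of them only through BKO libraries and Adamts17 only through control libraries. Their log2 fold changes ran from -3.52 in Adamts17 to 0.75 in Adamts15, with a median of -0.05, and 3 had an unadjusted p under 0.05. These were Adamts17, Adamts7 and Mmp19. Adamts17 was at 0, 0.0969, 0 and 0.0326 CPM against 0.500, 0.666, 0.407 and 0.363 CPM, in the order F1, F3, F4, F6 against F2, F5, F5-2, F7. It had to differ once tested, so the test adds little; all BKO libraries were below all controls on 5 counts against 54 (log2 ratio -3.52, SE 0.76, adjusted p = 0.0697 by edgeR). Adamts7 was at 5.74, 5.40, 5.77 and 4.99 CPM against 8.70, 7.64, 16.8 and 8.59 CPM, also without overlap and with F5-2 far above the other controls (5.47 ± 0.365 against 10.4 ± 4.29 CPM, log2 ratio -0.93, SE 0.23, adjusted p = 0.123 by edgeR). DESeq2 called these 2 lower (adjusted p = 0.0111 and 0.0155) and limma voom called Adamts17 lower (adjusted p = 0.0408). Mmp19 was at 75.5 ± 12.1 against 60.3 ± 7.75 CPM (log2 ratio 0.32, SE 0.13, adjusted p = 0.359 by edgeR), with overlapping groups. Adamts7 shares 122 exon bases with Tbc1d2b on the opposite strand, which had 17076 counts.

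The genes that rose in DKO livers had these levels in BKO livers. Adamts1 was at 15.8 ± 2.96 against 17.2 ± 4.69 CPM and Adamts2 at 7.23 ± 0.984 against 6.85 ± 0.744 CPM. Adamtsl2 was at 8.29 ± 3.37 against 6.22 ± 1.72 CPM and Mmp2 at 1.84 ± 0.615 against 2.32 ± 0.648 CPM. Adamts12 was at 0.838 ± 0.193 against 0.934 ± 0.182 CPM, Adamtsl1 at 1.82 ± 0.474 against 2.26 ± 1.04 CPM and Adamtsl3 at 0.596 ± 0.504 against 0.579 ± 0.165 CPM. The highest ratio among the tested genes was that of Adamts15, at 1.82 ± 0.573 against 1.07 ± 0.437 CPM (log2 ratio 0.75, SE 0.37, adjusted p = 0.466 by edgeR). Timp2 stood at 13.5, 11.3, 22.9 and 18.03 CPM against 17.02, 16.9, 19.5 and 20.3 CPM, and Timp3 at 36.4, 30.6, 52.6 and 36.8 CPM against 34.7, 46.2, 51.5 and 49.3 CPM, with overlapping groups in each. Mmp12 (27 counts against 38), Mmp13 (23 against 24), Mmp28 (28 against 31), Adamts4 (56 against 21) and Timp1 (9 against 4) did not reach the filter. Mmp12 counts were uneven, with 1.08 CPM in the control F5-2 and 0.589 CPM in F1. The remaining untested members in BKO were Timp4 (1 count against 2), Adamts16 (30 against 28), Adamts19 (3 against 1), Mmp3 (7 against 2), Mmp7 (12 against 42), Mmp8 (9 against 8), Mmp16 (14 against 5), Mmp20 (0 against 3) and Mmp25 (11 against 2), while Adamts18, Adamts20, Mmp1a, Mmp1b and Mmp10 had no count. Protease sums were 234, 239, 252 and 207 CPM against 233, 243, 231 and 221 CPM and TIMP sums 50.4, 41.9, 75.5 and 54.8 CPM against 51.7, 63.1, 71.1 and 69.7 CPM, and both overlapped. The marker sums of recruited macrophages (65.3 to 169.6 against 58.4 to 82.9 CPM), neutrophils (3.12 to 7.76 against 4.73 to 6.58 CPM) and myofibroblasts (20.7 to 29.7 against 25.0 to 34.0 CPM) also overlapped. Those of 8 bile duct epithelium markers did not, at 15.3 to 22.8 CPM in BKO livers against 29.8 to 39.3 CPM, with 0 of 7 tested called. None of the genes in the 4 further lists was called in BKO livers.

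**Figure D5:**
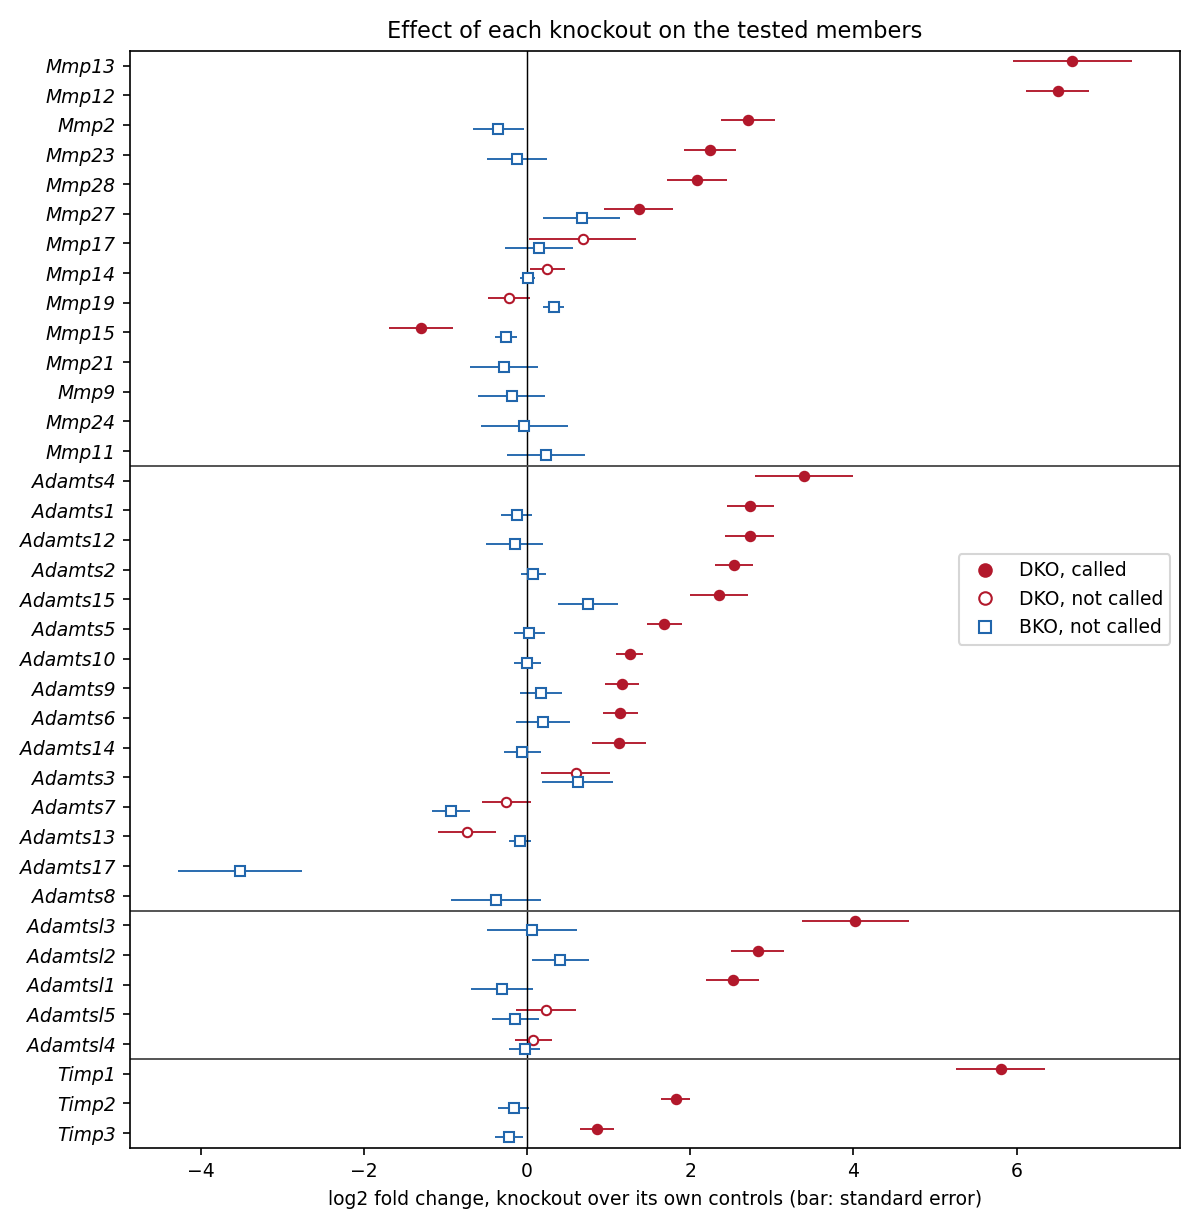
Log2 fold change of each tested member over its own controls on the x axis, with bars for the standard error, in DKO livers (circles, filled where called) and BKO livers (squares, 0 called). Genes are ordered within the MMP, ADAMTS, ADAMTS-like and TIMP families by their DKO value; a missing symbol means that the gene did not pass the count filter in that experiment.

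The difference of the effects was tested in a joint fit of all 16 libraries, as the DKO effect minus the BKO effect, each over its own controls. Of the 51 members 36 were tested, 17 had a higher effect in DKO livers and 0 a lower one. Over all 14050 genes tested, 11.0% were called higher (1552) and 11.5% lower (1610), and with total-count scaling 2627 and 744 genes. Among the 17, Adamtsl3, Mmp12, Mmp13 and Mmp28 passed the filter of the DKO experiment only through DKO libraries. Adamtsl3 reached the filter in the BKO experiment, but its DKO effect had to differ once tested. Mmp12, Mmp13 and Mmp28 did not reach the filter in the BKO experiment, so their calls in the difference were favoured in advance. The limit given above for the DKO tests of Adamts12, Adamts15 and Mmp23 holds here too. Among the MMP genes the difference on the log2 scale was 3.04 (SE 0.46, adjusted p = 0.000180 by edgeR) for Mmp2, 2.34 (SE 0.47, adjusted p = 0.00176 by edgeR) for Mmp23 and 2.34 (SE 0.63, adjusted p = 0.0124 by edgeR) for Mmp28. Those of Mmp12, 7.05 (SE 1.28, adjusted p = 0.00127 by edgeR), and Mmp13, 7.10 (SE 1.46, adjusted p = 0.00244 by edgeR), rest on few counts in the BKO experiment. For Mmp12 the difference was 4.94 without F5-2 and 7.68 without F1, and for Mmp13 it was 4.998 without F5 and 10.31 without WT-7067. Of the ADAMTS genes, Adamts1, Adamts2, Adamts5, Adamts10, Adamts12, Adamts14 and Adamts15 were called, with differences from 1.15 in Adamts14 to 2.85 in Adamts12. Adamts14 and Adamts15 were close to the threshold (edgeR adjusted p = 0.0496 and 0.0380), and their calls ended when single libraries were left out. Adamtsl1, Adamtsl2 and Adamtsl3 were called too, with differences of 2.80, 2.39 and 3.99, the last of these 4.76 without F4 and 4.58 without WT-7139. Both abundant inhibitor genes were among the called, at 1.95 (SE 0.28, adjusted p = 0.000155 by edgeR) for Timp2 and 1.04 (SE 0.29, adjusted p = 0.0176 by edgeR) for Timp3. Of the members called in DKO livers, the difference did not pass the edgeR test for Timp1 (4.81, SE 1.93, adjusted p = 0.0826), Mmp15 (-1.07, SE 0.44, adjusted p = 0.0953), Mmp27 (0.68, SE 0.66, adjusted p = 0.503), Adamts4 (2.24, SE 1.07, adjusted p = 0.147), Adamts6 (0.92, SE 0.42, adjusted p = 0.131) and Adamts9 (0.96, SE 0.34, adjusted p = 0.0536). Without F1 the difference of Timp1 was 7.27 and passed (edgeR adjusted p = 0.00484), and without DKO-7137 that of Mmp15 was -0.77 and passed (edgeR adjusted p = 0.0128). The experiments also differ in depth and are in separate tables, so DKO and BKO levels were not set against each other.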

How the data were processed

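Messenger RNA of 16 mouse liver libraries was read as counts per gene, deposited by the authors as 1 table of raw counts per experiment. Per the submitters' processing notes, featureCounts 1.6.2, HISAT2 2.1.0 and Trim Galore 0.4.1 were used, with GRCm38, mm10 and GRCh38 listed as builds without roles. The sources used here give no strand setting or annotation. Of the 51 members, 24 overlap another gene in GENCODE M21, 22 have one on the opposite strand and 11 share exon bases with a counted gene, so counts may be shared. The labelled genotypes gave the groups. Names of 27 BKO rows had turned into dates; these stayed in the BKO test and left 24394 genes for the joint fit, and 0 columns had no sample.

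Counts were tested over the whole table in R 4.3.3 with edgeR 4.0.16 (filterByExpr, TMM, robust quasi-likelihood fits, Benjamini-Hochberg adjusted p under 0.05), a step tested on simulated counts. The SE is the log2 fold change over the square root of F. Ratios are of mean CPM, and a group with no count was set to 3 counts over the group. Alternatives used DESeq2 1.42.0 and limma 3.58.1. F5 and F5-2 may come from 1 animal, so a fit with both summed was tried. The members and lists were chosen with earlier results of these data known. Named were all members, with each library's values for those called and the TIMP genes, and up to 4 genes a list; some of these are not reported here. Sequences are from RefSeq, GRCm38.p6; protein sequences were not used here. The labels share no replicate numbers between groups.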

Additional observations from a re-analysis of the deposited data

Results flagged for a closer look

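Single libraries stood apart from the other 3 of their group for 7 members, in 7 of 126 groups screened by a Dixon test that flags about 1 group in 20 by chance, so their number is close to that rate. In the DKO experiment, Adamts13 was at 15.1 CPM in DKO-7112 against 4.97 to 6.12 CPM in the other DKO livers, and Adamts6 was at 7.95 CPM in the control WT-7139 against 4.37 to 4.77. Mmp13 was at 0.224 CPM in the control WT-7067, the single control with any count. In BKO livers, F4 stood apart for Adamts10 (11.2 against 8.08 to 8.48 CPM) and Adamtsl3 (1.34 against 0.261 to 0.436 CPM), and F1 for Adamtsl5 (1.08 against 1.53 to 1.62 CPM). Among the BKO controls, F5-2 was at 16.8 CPM for Adamts7 against 7.64 to 8.70 in the other 3.

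The log2 effect in DKO minus that in BKO passed the joint edgeR test for 17 members. The limits given above hold for Adamts12, Adamts15, Adamtsl3, Mmp12, Mmp13, Mmp23 and Mmp28. It was 7.05 for Mmp12, 7.10 for Mmp13, 3.04 for Mmp2, 2.34 for Mmp23 and 2.34 for Mmp28. Among ADAMTS genes it was 2.83 for Adamts1, 2.42 for Adamts2, 1.62 for Adamts5, 1.23 for Adamts10, 2.85 for Adamts12, 1.15 for Adamts14 and 1.58 for Adamts15. It was 2.80 for Adamtsl1, 2.39 for Adamtsl2, 3.99 for Adamtsl3, 1.95 for Timp2 and 1.04 for Timp3.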

How the results depend on the processing

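The count of members higher in DKO livers, 22, ran from 20 to 22 without any 1 library and was 22 with DESeq2 size factors, total counts, removal of the 20 most abundant genes, limma voom and all 16 libraries in one fit. It was 25 with no filter and with the DESeq2 test, both of which added Mmp8, Mmp16 and Mmp25. The lower count of 1 was 0 with total counts and with no filter, 2 (Adamts13 added) with all 16 libraries, and 0 to 1 without any 1 library. Without DKO-7112 that 1 was Adamts13 in place of Mmp15. In BKO livers the lower count of 0 was 2 with DESeq2 and 1 with limma voom, and 0 to 0 without any 1 library. Over all genes tested, BKO calls ran from 4 to 145 higher and 13 to 199 lower over the alternatives. The difference of effects had 17 calls, and 15 to 20 without any 1 library. Lower calls in the difference, 0, were 1 with limma voom (Mmp15), without DKO-7112 (Adamts13) and without DKO-7137 (Mmp15), and Mmp8 gained a higher call in 10 alternatives. The log2 ratios of 7 genes in BKO livers, not called, crossed 0 (Adamts1, Adamts2, Adamts5, Adamts6, Adamts10, Adamts14 and Adamtsl3); no called value changed sign. Total-count scaling shifted the median gene by 0.18 in DKO and 0.28 in the difference, and the DKO calls over all genes from 2467 higher and 2137 lower to 3266 and 1269, and those of the difference from 1552 and 1610 to 2627 and 744; all 22 higher members were called under both. Mmp27, Adamts14 and Mmp15 lost their DKO calls in 7, 4 and 5 alternatives. Adamts14 and Adamts15 lost their calls in the difference in 12 and 10, while Adamts9 and Timp1 gained one in 8 and 3; the cause was not tested. No paired analysis was possible because the groups compared share no replicate numbers. The filter's level was 1.04 CPM in the DKO experiment and 0.340 CPM in the BKO experiment, and 20 and 19 members under it were not tested.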
